A study of Mus musculus with 19 samples.

Results

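The genes described are those that build the moving cilium: axonemal dynein chains, the factors that assemble them, and the proteins of the doublet microtubules, radial spokes and regulatory complexes. They were taken by symbol, as every row of the deposited table whose name starts with Dnah, Dnai, Dnaaf, Cfap, Drc, Rsph, Tekt or Ribc followed by a digit, which gave 85 of 21749 genes. A measured value was used for 1 further step: 26 of the 85 had a mean under 3.32 on the log2 scale (10 before the log) over all libraries and are called scarce, and 59 had a mean at or above it. The members just under that limit were Cfap157 (3.15) and Dnah5 (3.315), and those just above it were Cfap206 (3.328) and Cfap65 (3.43). The set was chosen by readout as well as by name, since earlier results of these data, in which Dnah1 and Cfap69 stood out, were known when it was proposed. Their tests below are therefore no independent support.

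The samples were 19 RNA sequencing libraries of ribosome-bound messenger RNA from mouse cortical astrocytes, prepared by translating ribosome affinity purification (TRAP), in which tagged ribosomes are pulled down with the messages they carry. All mice, of both sexes, carried the transgene Tg(Aldh1l1-EGFP/Rpl10a)JD130Htz on a B6;FVB background (the /J line), so every group had the tagged ribosomal protein under the control of the astrocyte gene Aldh1l1. The tag is made in the cells that use that promoter, and the pulldown also held messages of other cell types (values below). The groups were 8 metestrus, 3 proestrus (labelled Pro-Day), 4 estrus and 4 male libraries, with no treatment besides the stage of the estrous cycle. Females were collected at 09:00, while no source used here gives the ages of the mice or the hour for males. Batches are as labelled: metestrus libraries came from batch 2 (2), batch 3 (1) and batch 4 (5), proestrus from batches 2 (2) and 3 (1), estrus from batches 2 (3) and 3 (1), and males from batch 4 alone. Whether libraries are separate animals is not labelled, and p-values measure only the spread between these libraries, which may be technical. Replicate numbers are names and carry no order.

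A motile cilium is built on a ring of doublet microtubules around a central pair. Outer and inner dynein arms on each doublet, made of heavy, intermediate and light chains, slide the doublets against each other, and the nexin-dynein regulatory complex and the radial spokes turn the sliding into a beat. Dynein arms are assembled in the cytoplasm by dedicated factors before they enter the cilium. In the brain such cilia are known from ependymal cells, which line the ventricles, whereas astrocytes usually carry a single primary cilium that does not beat. The genes of motile cilia are known targets of the RFX transcription factors, which bind the X-box motif in promoters, and of FOXJ1.

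The labelled cell type was checked first. The summed level of 12 astrocyte markers lay between 18.09 and 19.03 on the log2 scale in all libraries. Messages of other brain cells were present beside them: the summed level of 8 neuron markers lay between 16.14 and 17.09, that of 5 oligodendrocyte markers between 14.15 and 15.08, that of 5 microglia markers between 9.64 and 10.54 and that of 4 endothelial markers between 7.15 and 9.71. The neuronal gene Snap25 had a mean of 15.67 and the oligodendrocyte gene Cnp one of 13.09. All 4 endothelial markers had a difference below 0 in estrus against proestrus, beside 48% of all tested genes, with a median of -1.11 log2. None passed in limma, and 2 had an unadjusted p under 0.05, beside 14.5% of all tested genes. Their part in the members' differences was not tested. The summed level of 7 ependymal markers, the cells best known for motile cilia, lay between 9.25 and 10.51. Their 2 highest members, Rarres2 and Ccdc153, had means of 8.73 and 6.95, and the lowest of the 7, Tmem212, had a mean of 4.15. The ependymal list held 8 symbols, and Pifo was not found under its symbol. Choroid plexus markers varied most, with a summed level from 7.23 to 13.88. The linear values summed to 1.98e7 to 2.56e7 per library, and the sequencing depth is unknown. The deposited values lack 4 directions of variation between libraries, which had been taken out with the group means kept. This favours separation of the groups and makes p-values too small. When it was allowed for, most calls between stages over all genes were lost (counts below). A second adjusted p that allows for it is therefore given beside the calls that are read as tests.

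Promoter sequences of the set were examined for the motifs of these factors, because they show what the members share apart from their names. RefSeq promoter windows (build GRCm38.p6, from 250 bases before to 50 after the annotated start) were matched for 69 of the 85 genes, 53 by the file's symbol and 16 by an older symbol, giving 77 windows. The X-box was searched on both strands as GTNNCC, then 3 bases of any kind, then GNAAC. It was present in 12 of 77 member windows (15.6%) against 714 of the 32851 windows searched over all genes (2.17%). A whole chromosome was left out of the windows, so they do not cover every gene. The shorter GTTGCC, which can be part of an X-box, was present in 32 member windows (41.6%) against 12.5% of all windows, and 7 member windows held both. The forkhead motif TGTTTAC was in 3 member windows (3.90%) and in 3.65% of all windows. A match is a string of letters and shows no binding.

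Of the 13 X-box matches in member promoters, 8 began within 30 bases before the annotated start (61.5%), compared with 137 of 737 matches over all windows (18.6%). These 8 are shown because they share letters and position across genes of different roles. They are written in the direction of the motif, with the letters of the outer parts in capitals and the 3 free bases in lower case:
Cfap44: GTTGCCataGCAAC
Cfap45: GTTACCataGCAAC
Cfap61: GTTTCCttaGCAAC
Cfap95: GTCTCCttaGCAAC
Cfap96: GTTCCCacgGCAAC
Cfap206: GTAACCgtgGAAAC
Dnaaf2: GTTGCCataGTAAC
Dnaaf5: GTCTCCaagGGAAC

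The matches began 27 bases before the start in Cfap44, 19 in Cfap45, 8 in Cfap61, 18 in Cfap95, 25 in Cfap96, 23 in Cfap206, 17 in Dnaaf2 and 18 in Dnaaf5. By level, 3 of the 22 scarce genes with a promoter window held the X-box, and 9 of the 47 others. The other matches were in Cfap20dc, Cfap298, Dnah17 and, in 2 places, Tekt4.

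For the 4 members that passed a test between stages, the 250 bases before the annotated start are shown, 5′ to 3′ on the strand of the gene, so that the member with the X-box can be compared with those without it. Capitals mark the X-box in Cfap45, where the reverse of the motif stands on the gene's strand, and GTTGCC in Ribc1. No match of either was found in Cfap69 or Dnah1. They lie at chr1:172520880-172521129 on the plus strand (Cfap45) and, all on the minus strand, at chr5:5664233-5664482 (Cfap69), chr14:31323897-31324146 (Dnah1) and chrX:152016296-152016545 (Ribc1), in build GRCm38.p6:
Cfap45: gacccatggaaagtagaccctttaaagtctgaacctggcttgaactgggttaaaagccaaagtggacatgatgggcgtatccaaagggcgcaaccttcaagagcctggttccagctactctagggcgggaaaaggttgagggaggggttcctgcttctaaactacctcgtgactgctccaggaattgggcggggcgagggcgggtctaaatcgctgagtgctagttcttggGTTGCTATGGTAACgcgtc
Cfap69: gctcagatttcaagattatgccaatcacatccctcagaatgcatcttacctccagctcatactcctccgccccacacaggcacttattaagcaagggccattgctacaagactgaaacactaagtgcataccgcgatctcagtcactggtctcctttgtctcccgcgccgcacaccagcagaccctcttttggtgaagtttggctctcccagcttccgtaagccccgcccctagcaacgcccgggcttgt
Dnah1: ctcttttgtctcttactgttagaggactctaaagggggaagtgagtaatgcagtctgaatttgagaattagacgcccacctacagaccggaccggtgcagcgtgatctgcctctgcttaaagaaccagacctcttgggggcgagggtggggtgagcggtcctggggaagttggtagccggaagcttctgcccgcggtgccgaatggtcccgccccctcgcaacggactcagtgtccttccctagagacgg
Ribc1: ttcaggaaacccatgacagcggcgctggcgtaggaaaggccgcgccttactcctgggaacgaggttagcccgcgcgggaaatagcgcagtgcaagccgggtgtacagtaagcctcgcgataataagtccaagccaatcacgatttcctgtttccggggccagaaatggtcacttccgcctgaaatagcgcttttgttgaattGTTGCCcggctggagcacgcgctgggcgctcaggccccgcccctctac

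The levels of the set spanned most of the measured range, from a mean of 1.25 on the log2 scale in Dnah3, an inner arm heavy chain, to 12.21 in Cfap36. The 10 highest were not the dynein motors. Cfap36 (12.21) was followed by Dnaaf9 (11.74), an assembly factor of outer arm dynein, Cfap68 (11.38), a protein inside the doublet microtubule, and Cfap20 (10.71), which closes the junction of the doublet. Cfap418 (10.54), Cfap298 (10.49), Cfap410 (10.01), the outer arm intermediate chain Dnai1 (9.89) and the radial spoke proteins Rsph3b (9.83) and Rsph9 (9.54) completed them. Each of these 10 was above the limit of 3.32 in all 19 libraries. Cfap410 and Cfap418 are also known from primary cilia or photoreceptors, and Cfap36 for binding the small GTPase Arl3, so the name of the family does not confine them to motile cilia.

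**Figure D1:**
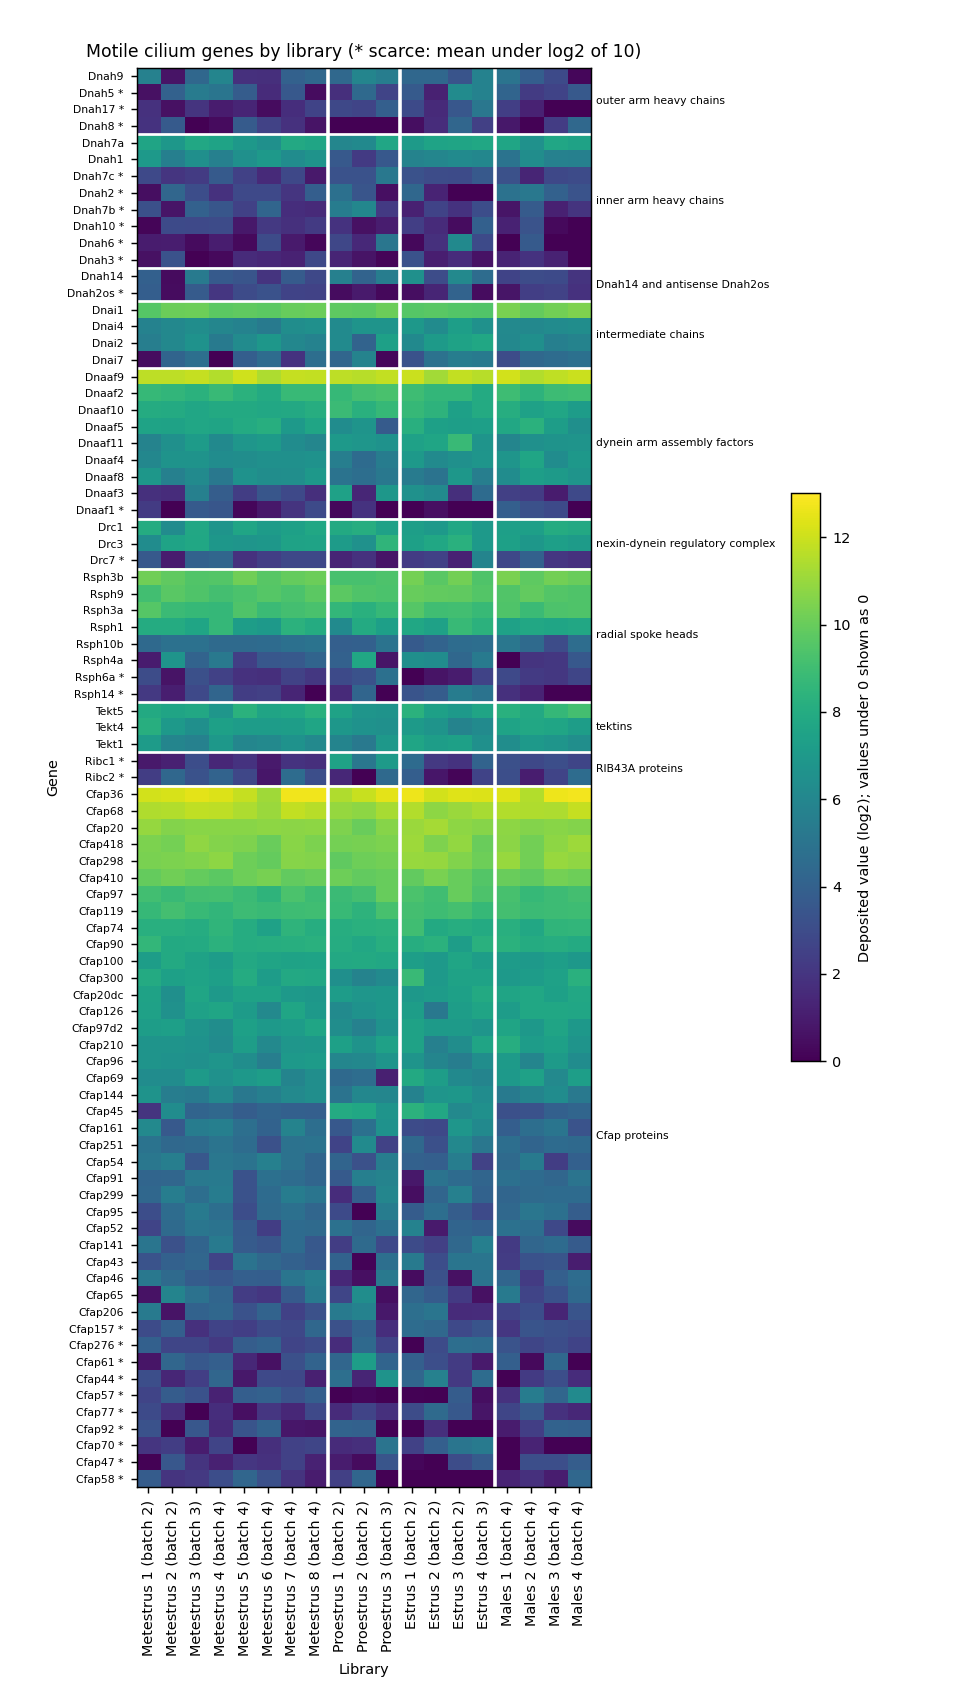
Deposited log2 value (colour) of the 85 members (rows, by role and then by mean) in the 19 libraries (columns, by group and labelled batch); an asterisk marks the 26 scarce members. Most heavy chain rows and the lower Cfap rows are dark and uneven within groups, with Dnah7a brighter than the other heavy chains. Cfap36, Dnaaf9 and Cfap68 are bright in all libraries. Dnah1, Cfap69, Cfap45 and Ribc1 differ between the 3 proestrus columns and those of metestrus, and Cfap45 is alike in proestrus and estrus.

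By role, the heavy chains that move the arms were the lowest. Of 13 heavy chain genes, 9 were scarce and their median was 2.78. Among outer arm heavy chains, Dnah5 (3.32), Dnah8 (1.44) and Dnah17 (1.83) were scarce and Dnah9 had a mean of 3.91, and among the 8 inner arm heavy chain genes only Dnah7a (7.26) and Dnah1 (5.65) lay above the limit. Dnah7a, Dnah7b and Dnah7c are near-identical copies, as are Rsph3a and Rsph3b, and reads may have been split between them, so their separate levels are uncertain. The antisense gene Dnah2os (1.95) overlaps Dnah2, and without strand information its reads cannot be told from those of Dnah2.

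The structural and assembly parts lay higher. The median mean level was 6.27 for the 4 intermediate chain genes, none of them scarce, and 6.77 for the 9 assembly factors, of which Dnaaf1 (1.43) was scarce. The nexin-dynein regulatory complex had Drc1 (7.46) and Drc3 (7.29) above the limit and Drc7 (2.61) below it. Among 8 radial spoke genes, with a median of 6.11, Rsph14 (2.19) and Rsph6a (2.21) were scarce. All 3 tektins, filament proteins of the doublet, lay above the limit, at 6.53 (Tekt1), 7.07 (Tekt4) and 7.74 (Tekt5), and both RIB43A proteins, which lie inside the doublet, lay below it. The 42 Cfap genes had a median of 4.62, and 10 of them were scarce.

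Genes were compared with each other per length, as the log2 level minus log2 of the longest annotated transcript in kilobases (GENCODE M21), which was available for 83 of 85 members. On this scale the median was -0.91 for the 13 heavy chain genes, from -2.62 (Dnah8) to 3.65 (Dnah7a), and 1.97 for Dnah1 alone. It was 3.91 for Cfap genes, 4.32 for intermediate chains, 5.22 for radial spoke genes, 5.59 for assembly factors and 6.45 for tektins. The highest values per kilobase were those of Cfap36 (11.48), Cfap298 (9.97), Cfap68 (9.91) and Rsph9 (9.59). Heavy chain transcripts are long, with a median of 13.7 kilobases against 2.87 for Cfap genes, so the distance between the motors and the other parts was wider per length than in the level itself. No source used here says whether the deposited values had already been scaled for length.

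**Figure D2:**
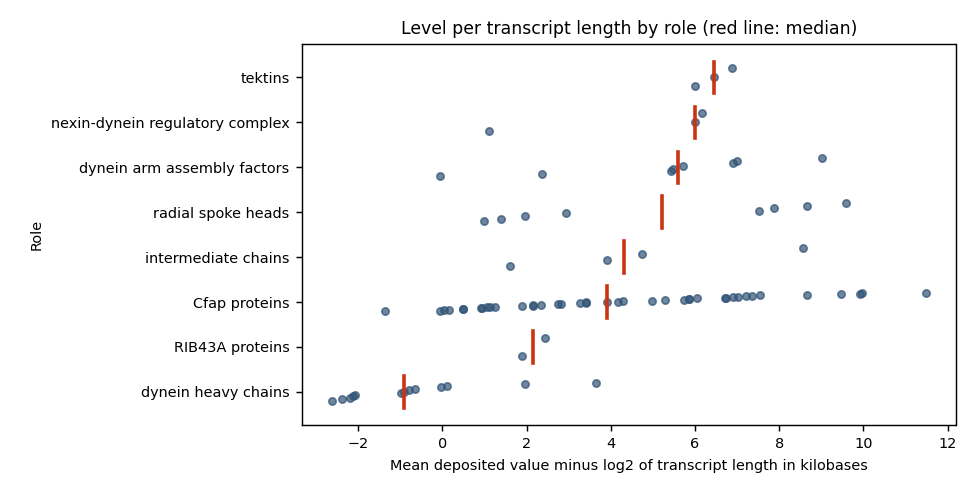
Mean deposited log2 value minus log2 of transcript length in kilobases (horizontal axis) for each member with a known length (points), by role (rows), with the median in red. Heavy chains centre on -0.91 and tektins on 6.45, and the Cfap genes span nearly the whole axis, up to 11.48.

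The spread between libraries of a group depended on the level. The pooled within-group SD of a member's log2 value had a median of 0.34 among the 31 members with a mean of at least log2 of 100, 1.05 among the 28 members between that and the scarce limit, and 1.36 among the 26 scarce members. For most scarce members a difference of 1 log2 unit was therefore smaller than the spread within a group. The mean over the 59 members above the limit was 6.81 ± 0.16 in metestrus (SD, n = 8), 6.57 ± 0.11 in proestrus (SD, n = 3), 6.94 ± 0.11 for the 4 estrus libraries and 6.74 ± 0.03 for the 4 of males (SD). Metestrus libraries ranged from 6.57 to 7.03 and proestrus libraries from 6.50 to 6.70, so these groups overlapped, while the estrus libraries (6.80 to 7.05) all lay above the proestrus ones.

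Differences between groups were tested with limma on all 20644 genes that reached 3.32 in at least 3 libraries, with group and batch in the model and Benjamini-Hochberg adjustment over all of them. Of the members, 82 were tested, including 23 scarce ones, and Dnah3, Dnah10 and Rsph6a were not. A scarce gene that entered through the group where it was high had to differ there, so no count of scarce members is read as a result. In proestrus against metestrus, 2 members were lower and 2 were higher past the threshold of 0.05. Lower were Dnah1, an inner arm heavy chain, and Cfap69, a protein known from the sperm flagellum and olfactory cilia. Higher were Cfap45, a protein inside the doublet, and the scarce RIB43A gene Ribc1. Over all genes 204 of 20644 passed (0.988%), 48 higher (0.233%) and 156 lower (0.756%), beside 4 of 82 members. Without the scarce genes, 3 of 59 members and 130 of 16930 genes passed. With the removed directions allowed for, 3 of 82 members and 75 of 20644 genes passed. Dnah1 and Cfap69 are among the members counted and were known beforehand, so no excess over all genes is read from these counts.

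Dnah1 was at 3.61, 2.21 and 3.57 on the log2 scale in the 3 proestrus libraries and between 5.61 and 7.0 in the 8 metestrus libraries, with a median of 6.51. The 4 estrus libraries read 5.81, 5.96, 6.21 and 6.04, and the males 4.95, 6.38, 5.69 and 5.64. Every proestrus library lay below every library of the other groups. The fitted difference of proestrus from metestrus was -3.23 ± 0.51 log2 (SE), with an adjusted p of 0.00312 in limma and 0.0158 when the removed directions were allowed for. Within batch 2 the difference was -3.40, and within batch 3, with 1 library of each stage, -2.91. Batch differences within groups had been partly removed from the deposited values, so differences within a batch may still carry a batch effect.

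Cfap69 read 4.46, 4.63 and 1.14 in proestrus and from 5.88 to 7.23 in metestrus (median 6.51). The estrus libraries read 7.88, 7.22, 6.17 and 5.89 and the males 7.05, 7.42, 6.12 and 7.31, so the proestrus libraries again lay below all others. The low value of 1.14 belongs to Proestrus 3. The fitted difference from metestrus was -3.16 ± 0.62 log2 (SE, adjusted p 0.0134 in limma, 0.0387 with the removed directions). The difference was -5.92 in batch 3 and -1.78 in batch 2. The difference fell to -2.13 without Proestrus 3, with an adjusted p of 0.0831, and to -2.17 without Metestrus 3, with an adjusted p of 0.0997 in limma.

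Cfap45 read 7.94, 7.73 and 6.72 in proestrus, against 1.93 to 6.31 in metestrus with a median of 4.07. Estrus libraries lay beside those of proestrus, at 8.33, 7.79, 6.13 and 6.54, and males beside metestrus, at 3.16, 3.25, 3.97 and 4.23. Proestrus lay wholly above metestrus, while the lowest estrus library overlapped the highest metestrus one. The fitted difference of proestrus from metestrus was 3.32 ± 0.77 log2 (SE, adjusted p 0.0373 in limma). With the removed directions the adjusted p was 0.0906, and the call was also lost when any of 7 libraries was left out (Metestrus 1, 3, 5 or 7, or any of the 3 of proestrus); over all 11 libraries left out in turn the difference lay between 2.00 and 4.38. This is the member whose X-box begins 19 bases before the start of the gene.

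Ribc1 read 7.51, 5.14 and 7.08 in proestrus and 0.90 to 3.07 in metestrus, with a median of 1.59. In estrus it read 4.55, 2.17, 1.91 and 4.13, and in males 3.17, 2.81, 3.11 and 2.70. Only 5 libraries reached 3.32, the 3 of proestrus and 2 of estrus, so the gene entered the test through the stage where it was high. The fitted difference of proestrus from metestrus was 4.85 ± 0.80 log2 (SE); it passed the threshold, but since its entry depended on proestrus the call is given as a description and no support is read from it. Within batches 2 and 3 the differences were 5.27 and 4.01. Its relative Ribc2, also scarce, had a fitted difference of -1.41 ± 1.19 with an adjusted p of 0.657 in limma.

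**Figure D3:**
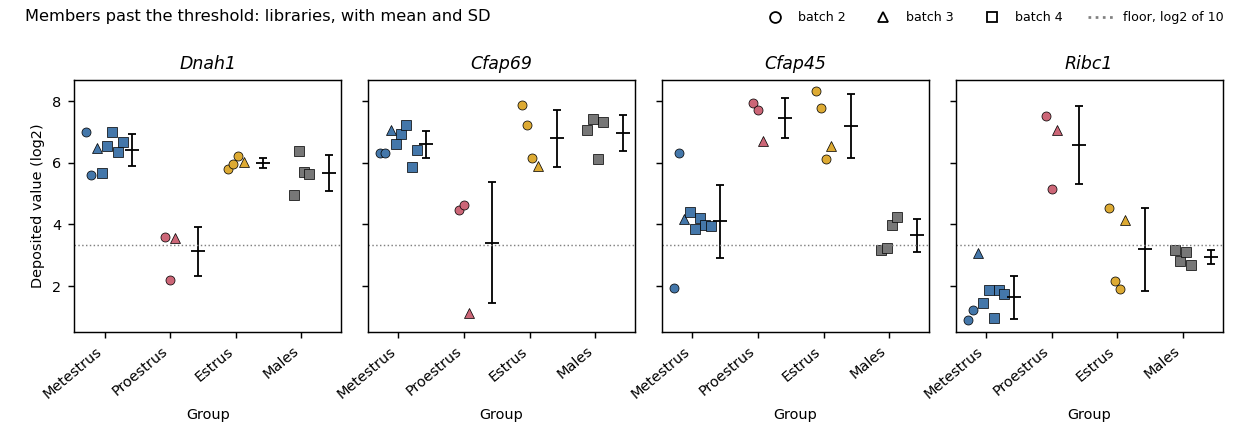
Deposited log2 value (vertical axis) of Dnah1, Cfap69, Cfap45 and Ribc1 in each library (points; shape gives the labelled batch), by group, with the mean and SD as bars; the dotted line marks log2 of 10. The proestrus points lie below all others for Dnah1 and Cfap69 and above all metestrus points for Cfap45 and Ribc1, and the estrus points of Cfap45 lie with those of proestrus.

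The tests of estrus against proestrus use the same proestrus libraries, so they are not a second, independent look at these genes. Dnah1 was higher in estrus than in proestrus by 2.90 ± 0.48 log2 (SE, adjusted p 0.00474 in limma, 0.0181 with the removed directions), and Cfap69 by 3.27 ± 0.58 (SE, adjusted p 0.00816, 0.025 with the removed directions). Ribc1, whose entry into the test depended on proestrus, was lower, at -3.28 ± 0.75 log2 (SE, adjusted p 0.0348 in limma), which became 0.11 with the removed directions. Its call is again a description, and no support is read from it. The call of Ribc1 was also lost without Proestrus 1 or 2 or without Estrus 2, 3 or 4, with differences from -3.84 to -2.50 over all libraries left out. Over all genes 194 of 20644 passed (0.940%), 123 higher (0.596%) and 71 lower (0.344%), against 3 of 82 members. Without the scarce genes, 2 of 59 members and 142 of 16930 genes passed. These 2 are Dnah1 and Cfap69, known beforehand, so no excess over all genes is read from them. With the removed directions allowed for, 2 of 82 members and 52 of 20644 genes passed. With no batch term in the model 9 members passed in proestrus against metestrus and 6 in estrus against proestrus, while the calls over all genes rose in both, to 1146 in the former. When the libraries of batch 4 were left out of the model, no member passed in either comparison and the differences were the same, with adjusted p from 0.147 to 0.276 for the 4 genes in proestrus against metestrus and from 0.161 to 0.245 for Dnah1, Cfap69 and Ribc1 in estrus against proestrus. In that model 1 of all genes passed in proestrus against metestrus and 0 in estrus against proestrus.

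Next to the calls stood Dnaaf5 and Dnaaf4, which are assembly factors, and Cfap300. Dnaaf5 read 6.32, 6.73 and 3.74 in proestrus, 7.0 to 8.13 in metestrus and 8.20, 7.39, 7.30 and 7.36 in estrus. Dnaaf4 read 5.57, 4.56 and 5.47 in proestrus, 6.03 to 6.70 in metestrus and 7.03, 6.21, 6.53 and 6.80 in estrus. Cfap300, which takes part in dynein assembly, read 6.49, 5.80 and 6.20 in proestrus, 7.18 to 8.0 in metestrus and 8.79, 7.05, 7.51 and 7.47 in estrus. For each of the 3 genes the proestrus libraries lay below those of both other stages. In proestrus against metestrus, libraries lay apart for 9 of 59 members above the limit (15.3%) and 7.78% of all such genes. In estrus against proestrus they did so for 10 of the 59 (16.9%) and 8.38% of such genes. Dnah1 and Cfap69, known when the set was proposed, are counted in both shares of members. The near-identical copies Rsph3a and Rsph3b count as 2 genes in the latter. No result is read from these shares. For the 3 genes, the differences of proestrus from metestrus were -1.97, -1.26 and -1.47 log2, with adjusted p of 0.0702, 0.133 and 0.0843 in limma. Those of estrus from proestrus were 1.89, 1.47 and 1.53, with adjusted p of 0.0581, 0.0518 and 0.0518. All 3 passed in estrus against proestrus when the libraries were centred on their medians, and when the batch term was left out. With the removed directions allowed for, their adjusted p in limma were 0.129 (Dnaaf5), 0.139 (Dnaaf4) and 0.127 (Cfap300) in that comparison. None of them passed there with batches 2 and 3 alone.

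Among the other assembly factors, Dnaaf8 read 4.93, 4.68 and 5.23 in proestrus and 5.23 to 6.93 in metestrus, with a difference of -1.32 ± 0.51 log2 (SE, adjusted p 0.258 in limma). Dnaaf2 and Dnaaf10 had differences of 0.52 and 0.72 log2 in proestrus from metestrus, and Dnaaf9, the most abundant, had -0.05 ± 0.20 (SE). Dnaaf10 (8.87, 8.23 and 8.71) lay above all metestrus libraries (7.69 to 8.08), with an adjusted p of 0.308 in limma. Dnaaf3 was divided within the groups, at 7.44, 1.40 and 6.88 in proestrus and 6.59, 6.21, 1.74 and 4.54 in estrus, against 1.65 to 5.68 in metestrus, and its difference of 2.20 ± 1.30 (SE) had an adjusted p of 0.503. Of the 8 factors above the scarce limit, 4 had differences below 0 and 4 above it, with a median of 0.14.

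The radial spoke, tektin, regulatory complex and intermediate chain genes gave no call between the stages. The 3 tektins had a median difference of -0.52 log2 in proestrus from metestrus, and the 6 radial spoke genes above the limit -0.46. The radial spoke gene Rsph3b read 9.21, 9.23 and 9.35 in proestrus, below all metestrus libraries (9.48 to 10.19) and all estrus libraries (10.29, 9.68, 10.24 and 9.43). Its difference from metestrus was -0.57 ± 0.23 log2 (SE, adjusted p 0.292 in limma), and that of its near-identical copy Rsph3a was -0.51 ± 0.26 (SE, adjusted p 0.415). Drc1 and Drc3 had 0.45 and 0.20, and the 4 intermediate chains a median of 0.12. The inner arm heavy chain Dnah7a read 5.98, 6.19 and 7.69 in proestrus and 6.55 to 7.85 in metestrus, a difference of -0.81 ± 0.39 (SE, adjusted p 0.38), and the outer arm heavy chain Dnah9 had 1.69 ± 1.24. Cfap46, a central pair protein, read 1.46, 0.55 and 5.28 in proestrus and 3.53 to 5.56 in metestrus, with a difference of -2.07 ± 1.02 (SE, adjusted p 0.395).

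Across the 59 members above the scarce limit, 39 had a difference below 0 in proestrus against metestrus, with a median of -0.23 log2. Over all 16930 tested genes above the same limit, 58.6% had a difference below 0 and the median was -0.08. In estrus against proestrus 37 of the 59 had a difference above 0, with a median of 0.22, beside 52.5% and 0.03 over those genes. At an unadjusted p under 0.05 stood 12 of these 59 members in proestrus against metestrus (20.3%, all such genes 11.7%) and 15 in estrus against proestrus (25.4%, all such genes 13.8%). Dnah1 and Cfap69, known when the set was proposed, are among them in both comparisons. The near-identical copies Rsph3a and Rsph3b count as 2 genes in the latter. These shares are therefore a description, and no excess over all genes is read from them. By the GTTGCC motif, the 22 genes above the limit whose promoter held it had a median of -0.29 in proestrus against metestrus, and the 25 that lacked it -0.05. For the X-box the medians were -0.36 over 9 genes and -0.17 over 38. In estrus against proestrus the medians were 0.47 with GTTGCC and 0.19 without it, and -0.10 with the X-box and 0.26 without it. These medians are a description, and their difference was not tested.

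**Figure D4:**
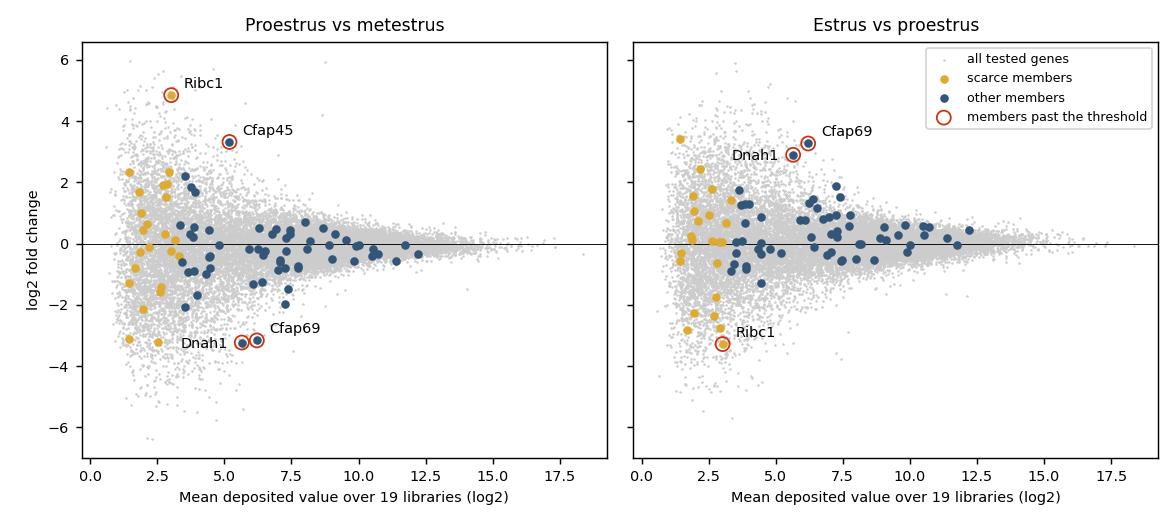
Log2 fold change (vertical axis) against the mean deposited log2 value over 19 libraries (horizontal axis) for all tested genes (grey), scarce members (yellow) and other members (blue), in proestrus against metestrus (left) and estrus against proestrus (right); red rings mark members past the threshold. Most members lie within the grey cloud, and Dnah1 and Cfap69 lie at its lower edge on the left and its upper edge on the right.

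In estrus against metestrus no member passed the limma test at an adjusted p under 0.05, while 18 of all 20644 genes did (0.0872%). With the removed directions allowed for, 0 of all genes passed. At an unadjusted p under 0.05 stood 12 of 82 members (14.6%) and 11.3% of all genes. Above the scarce limit it was 7 of 59 members (11.9%), beside 10.4% of all such genes. The nearest was Cfap45, at 3.00 ± 0.72 log2 (SE, adjusted p 0.11). The next differences by size among members above the limit were -2.02 ± 0.96 for Cfap46, 1.91 ± 0.94 for the heavy chain gene Dnah14, 1.89 ± 1.22 for Dnaaf3 and 1.60 ± 1.28 for the intermediate chain gene Dnai7 (SE), with adjusted p from 0.435 to 0.668. Dnah14 read 6.55, 3.03, 6.11 and 4.62 in estrus and 0.40 to 5.34 in metestrus, so the groups overlapped. The sign for Dnai7 rested on 1 library, since without Metestrus 1 its difference was -0.01. Dnah1 and Cfap69, with -0.34 ± 0.48 and 0.11 ± 0.58 (SE), had overlapping estrus and metestrus libraries.

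In males against metestrus, compared within batch 4, no member passed in limma, and 4 of 82 had an unadjusted p under 0.05 (4.88%, all genes 5.33%). Above the scarce limit it was 2 of 59 members (3.39%, all such genes 5.06%). No member's males lay apart from all 8 metestrus libraries, as those of 1.44% of all tested genes did. Against the 5 metestrus libraries of batch 4 alone, Ribc1, named after its values were seen, lay apart, with males at 2.70 to 3.17 and metestrus at 0.96 to 1.89, all under the scarce limit. The share of all genes apart in that smaller comparison was not counted, and no result is read from it. Over all genes 5 of 20644 passed (0.0242%). The largest differences among members above the limit were -2.04 ± 1.13 log2 for Rsph4a, a radial spoke head gene, -1.45 ± 0.79 for Cfap43, 1.22 ± 1.12 for Dnai7, -0.94 ± 0.67 for Cfap54 and -0.89 ± 0.98 for Cfap206 (SE), with adjusted p from 0.971 to 0.992. Rsph4a read -0.53, 1.94, 2.09 and 3.60 in males and 0.98 to 6.71 in metestrus, and Cfap43 2.31, 3.26, 3.42 and 1.02 against 2.69 to 4.93. The most abundant members had small differences: Cfap36 differed by 0.18 ± 0.28, Dnaaf9 by 0.12 ± 0.17, Cfap68 by 0.03 ± 0.16 and Cfap20 by -0.09 ± 0.15 (SE). For Dnai1 males read 10.40, 9.92, 10.24 and 10.48 against 9.56 to 10.13 in metestrus, a difference of 0.39 ± 0.16 (SE, adjusted p 0.858). Over the 59 members, 33 had a difference above 0 and the median was 0.05, beside 0.04 over all tested genes of such levels.

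**Figure D5:**
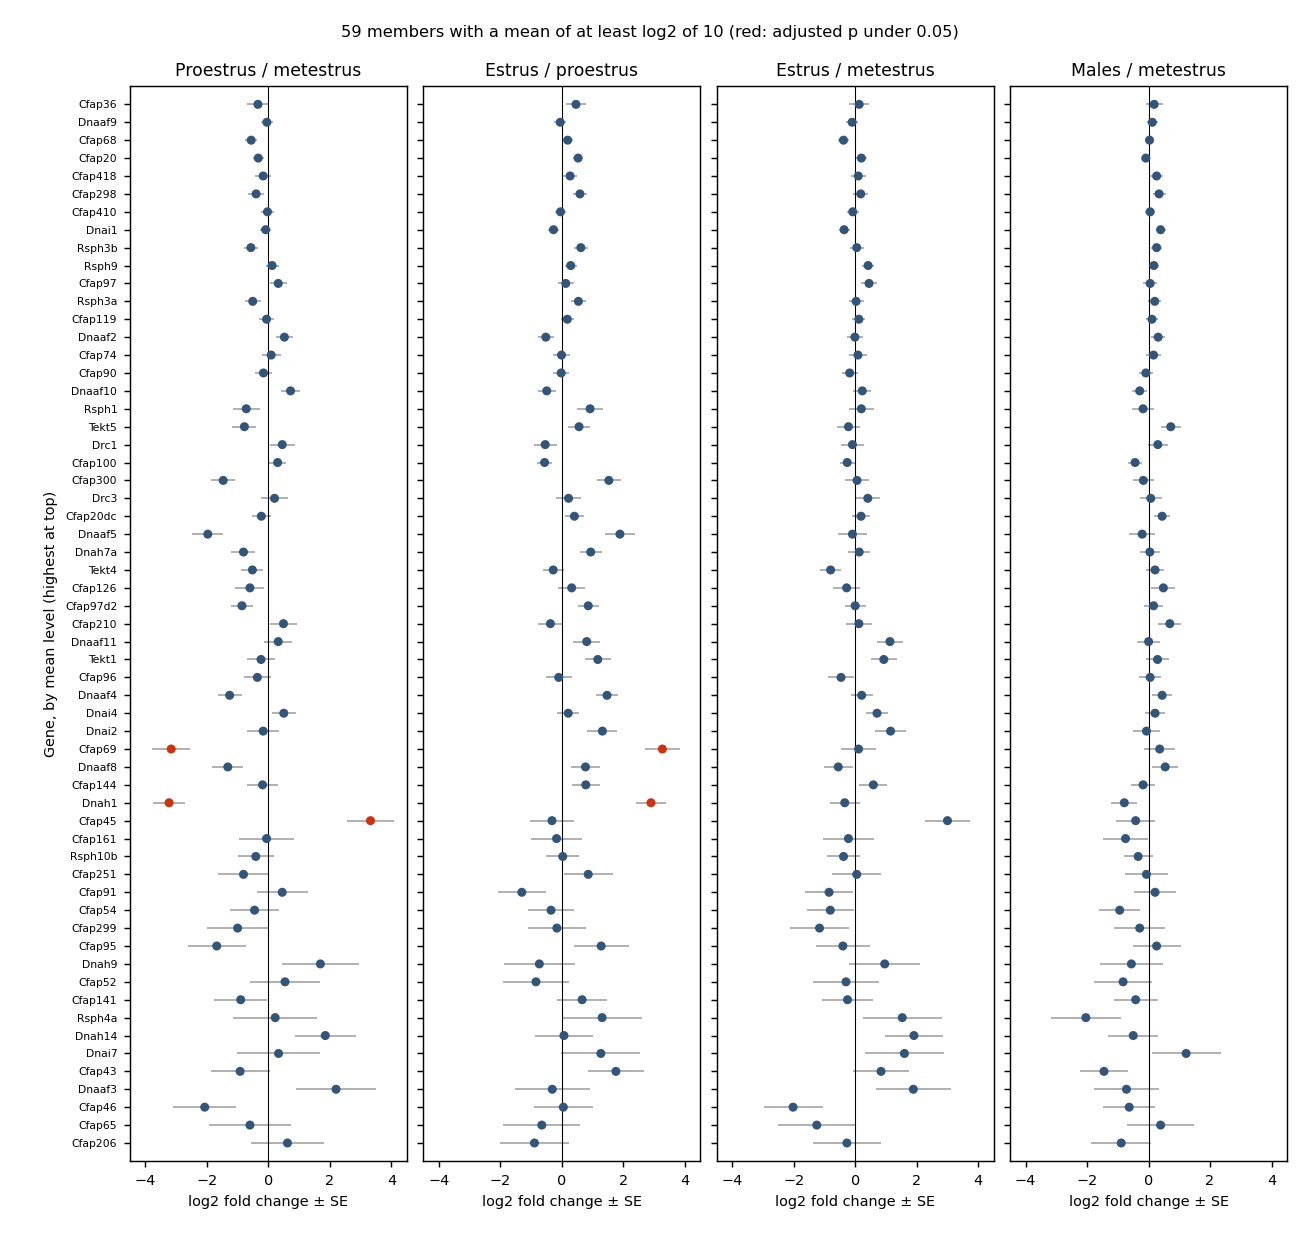
Log2 fold change with its SE (horizontal axis) of the 59 members with a mean of at least 3.32 (rows, highest mean at the top) in 4 comparisons (panels); red marks an adjusted p under 0.05. Error bars widen towards the low rows, Dnah1, Cfap69 and Cfap45 are the red points of the left panel, and the male panel holds none.

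Beside the named families stand the other genes of motile cilia, from a list of 52 symbols of which 50 were tested. Mcidas and Hydin were not found under these symbols and were not analysed here. In proestrus against metestrus 40 of the 50 had a difference below 0, beside 58.1% of all tested genes, with a median of -0.55 log2. None passed the limma threshold, and 12 had an unadjusted p under 0.05, beside 13.1% of all tested genes. In estrus against proestrus 38 of 50 had a difference above 0, beside 52% of all tested genes, with a median of 0.43. Ak7, an adenylate kinase of cilia, passed the threshold (4.31 ± 0.97, SE). Its adjusted p was 0.0325 in limma and 0.0867 when the removed directions were allowed for. Ak7 is scarce, with a mean of 3.06, and was high in estrus (5.76 against 1.36 in proestrus), so its call is a description as well. The regulators Foxj1, Rfx2 and Rfx3 had -0.86 ± 0.40, -0.04 ± 0.45 and -0.22 ± 0.20 in proestrus against metestrus (SE), with adjusted p of 0.357, 0.983 and 0.692. In males against metestrus the list's median was 0.00 with 26 of 50 above 0, beside 55.3% of all tested genes.

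Markers of ependymal cells had the same signs as the members' medians between stages, but not in males. All 7 had a difference below 0 in proestrus against metestrus, beside 58.1% of all tested genes, with a median of -0.54 log2. All 7 had one above 0 in estrus against proestrus, beside 52% of all tested genes, with a median of 0.65. None passed in limma. In each comparison 3 of 7 had an unadjusted p under 0.05, beside 13.1% and 14.5% of all tested genes. In males against metestrus all 7 were below 0, beside 44.7% of all tested genes, with a median of -0.29, while 33 of the 59 members were above 0. Ccdc153 and Dynlrb2, both known as ependymal markers, had -1.56 ± 0.50 and -1.35 ± 0.44 in proestrus against metestrus (SE, adjusted p 0.152 and 0.163). Their summed level was 9.84 to 10.51 in metestrus, 9.25 to 9.89 in proestrus, 9.93 to 10.37 in estrus and 9.74 to 10.20 in males. Foxj1 and Meig1 stand in both this list and the wider cilium list. The part of ependymal messages in the members' differences was not tested, and in such bulk samples fewer cells of a type cannot be told apart from less message per cell.

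Primary cilium genes, the set most like this one among cilia that do not beat, served as a comparison. The list held 34 symbols, and Ttc26 was not found under its symbol. Of 33 tested transport and BBSome genes, 22 had a difference below 0 in proestrus against metestrus, with a median of -0.18 log2. Over all tested genes 58.1% had a difference below 0. Lca5 passed, at -2.86 ± 0.50 (SE), with an adjusted p of 0.00772 in limma and 0.0276 with the removed directions. In estrus against proestrus 20 of 33 had a difference above 0, beside 52% of all tested genes, with a median of 0.20. Again Lca5 passed in limma, at 2.76 ± 0.47 (SE), with adjusted p of 0.00586 and 0.0181. These medians lay close to those of the 59 motile cilium members, and the difference between the sets was not tested.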

How the data were processed

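RNA sequencing of astrocyte TRAP libraries was deposited by the authors as 1 table of log2 values for 21749 genes in 19 libraries. Its name says that surrogate variables were adjusted for, and per the submitters' processing notes GRCm39 was the build and edgeR, Salmon and STAR were used, with no versions. No source used here gives the scaling, filters or annotation. The log base was read from the values, whose powers of 2 sum to about the same total in each library. The values span 11 residual directions in place of 15, so 4 had been removed.

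Members were taken by symbol. The members and the gene lists were chosen with earlier results of these data known. Group and batch were fitted to the 19 libraries together with limma 3.58.1 under R 4.3.3 (trend and robust prior, two-sided) over 20644 genes with at least 3.32 in 3 libraries, with 13 residual degrees of freedom. An alternative adds the removed directions and has 11. With batch in the model, stage differences rest on batches 2 and 3, and those of males on batch 4. However, 98.6% and 9.95% of the batch directions within groups lay in the removed space, with the group means kept. Batch differences within groups had thus partly been taken out beforehand. Neither the batch term nor differences within a batch can therefore show a group difference free of batch. The script was tested on simulated data before use. Genes named in the text are members past the threshold, the 10 highest means and the 5 largest changes per comparison above the scarce limit, with Dnah1 and Cfap69. The other members and list genes with values were named after their values were seen. Alternatives were the batch term, degrees of freedom, scaling, filters, the variance prior, batches, pairing and each library left out. Promoter windows and transcript lengths are of build GRCm38, older than that of the files, and were joined by gene name or ID only. Sequence counts used Python 3.11.15 with pandas 2.3.3.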

Additional observations from a re-analysis of the deposited data

Results flagged for a closer look

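Within groups of 4 to 8 libraries, 75 sets of values, of the 24 named members and of the mean over the 59 members above the scarce limit, were checked for a library far from the rest, and 4 had one, where chance gives about 1 in 20. Ribc1 read 3.07 in Metestrus 3, with the nearest metestrus library at 1.89. Cfap43 read 3.09 in Estrus 2, with the nearest at 5.04. Dnaaf5 read 8.20 in Estrus 1, with the nearest at 7.39. Cfap68 read 11.85 in Males 4, with the nearest at 11.49. With each library left out in turn, the difference of Ribc1 in proestrus against metestrus lay between 4.10 and 5.39 log2, and that of Dnaaf5 in estrus against proestrus between 1.05 and 2.35.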

How the results depend on the processing

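In proestrus against metestrus, 4 members passed; the number was 9 with no batch term, 2 with a filter on a mean of at least log2 of 10, 0 with batches 2 and 3 alone (1146, 104 and 1 over all genes, 204 as reported), and 2 to 4 with each library left out (2 without Proestrus 3 and without Metestrus 3). In estrus against proestrus, 3 passed; the number was 6 with no batch term, 6 with libraries centred on their medians, 0 with batches 2 and 3 alone (over all genes more than the 194 reported with no batch term, then 310 and 0) and 2 to 4 with each library left out. In estrus against metestrus, 0 passed; 3 did with no batch term (899 over all genes, 18 as reported), and 0 to 1 with each library left out, Cfap45 passing without Metestrus 2 (4.10 log2, adjusted p 0.0386 in limma). With the removed directions allowed for, the members past the threshold numbered 3, 2 and 0 in these comparisons, in that order. Over all genes the numbers were 75, 52 and 0. Batches 2 and 3 alone leave fewer libraries to estimate the spread, which in the model as reported also takes in those of batch 4. The cause of the lost calls was not tested. Dnah1 in proestrus against metestrus, and Dnah1 and Cfap69 in estrus against proestrus, passed with each library left out. With the mean filter, Ribc1 (mean 3.02) was not tested, and Cfap45 in proestrus against metestrus had an adjusted p of 0.0505 in limma. Dnai7 in estrus against metestrus turned from 1.60 to -0.01 without Metestrus 1 (range -0.01 to 2.93); the cause was not tested. With members of at least log2 of 100, 31 in all, mean levels were 8.64 (metestrus), 8.41 (proestrus), 8.70 (estrus) and 8.77 (males), and centring on medians gave 6.70 in males.

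In males against metestrus, 0 members passed under all 20 alternatives, including the replicate block by the number in the titles (0 members). Whether those numbers pair the libraries is not labelled. The correlations of deviations between same-numbered libraries were -0.10, -0.20, 0.15 and -0.01. The best match was the own number for Males 3 and Metestrus 8 (0.15) and another for the rest. Such correlations cannot decide it, since directions within groups had been removed from the values. Values near and under 3.32 limit the scarce members most, and the depth behind them is unknown.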
